A study of Mus musculus with 4 samples.

Results

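Alpha-1 antitrypsin and its relatives are serpins, secreted proteins that inhibit serine proteases. The 6 genes described here were Serpina1a, Serpina1b, Serpina1c, Serpina1d and Serpina1e, the mouse copies that encode alpha-1 antitrypsin, and Serpina3n, a mouse relative of human alpha-1 antichymotrypsin. They were taken by gene symbol from a table of 24532 genes, and all 6 were listed once. They were chosen by the values shown here, since the Serpina1 copies were near absent in young and abundant in adult cartilage, so their levels and ratios are a description and not a test. The levels of the 5 Serpina1 copies were also summed, because the copies are near identical in sequence.

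A serpin exposes a loop that a protease takes for a substrate. Cleavage of the loop traps the protease in an inactive covalent complex, and the residue just before the cleaved bond sets in large part which protease is caught. Alpha-1 antitrypsin is made chiefly by the liver and circulates in plasma, where it is the main inhibitor of neutrophil elastase, a protease able to degrade cartilage matrix. Serpina3n is an acute phase gene, induced in many tissues by inflammatory cytokines, and its product inhibits cathepsin G and granzyme B among others.

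Cartilage of wild type C57BL/6 mice was profiled by RNA-seq in 4 libraries, 1 for each combination of age (young or adult) and surgery (sham or injured). Young mice were 3 weeks old, and adult mice were 10 weeks old by the methods of the study, 12 weeks by the sample titles and 14 weeks by the age labels. The methods describe the injury as a full-thickness needle injury of the patellar groove (FTCI) in male mice, while the titles call it DMM surgery. The libraries were labelled as day 3, except adult sham, labelled as days 3 to 14, and RNA was pooled from 10 injured or 5 uninjured mice. Values of a gene in 4 libraries are listed below with the sham and then the injured library of young mice first, followed by the same pair of adult mice. With 1 library per group there was no replicate check, so no difference below carries an error or a test, and the 4 comparisons share libraries with one another. The difference in sampling days cannot be told apart from age or injury where adult sham is compared. All libraries held abundant cartilage transcripts: Col2a1, the collagen of hyaline cartilage, was between 3173 and 9349 FPKM (fragments per kilobase of transcript, scaled to the number of mapped fragments). FPKM summed to between 469939 and 533468 per library, 7457 to 8390 genes were listed at 0, and the 10 most abundant genes took between 14.7% and 26.5% of the sum, the most in adult sham.

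The stretch below is shown because it is where the copies differ most and because it encodes the bait loop. The coding sequences of the 5 copies were 1242 bases each and pairwise 96.3% to 98.5% identical. They differed at 86 positions, which is 6.92% of the coding sequence, whereas 18 of the 60 bases from coding base 1101 to 1160 differed. Capitals mark the positions at which the 5 copies are not all alike, read 5′ to 3′ from GENCODE vM21 transcripts.
Serpina1a: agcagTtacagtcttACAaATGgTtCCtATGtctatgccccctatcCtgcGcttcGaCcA
Serpina1b: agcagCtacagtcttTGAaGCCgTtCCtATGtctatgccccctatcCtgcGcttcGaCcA
Serpina1c: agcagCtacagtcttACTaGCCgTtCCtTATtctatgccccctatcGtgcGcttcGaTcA
Serpina1d: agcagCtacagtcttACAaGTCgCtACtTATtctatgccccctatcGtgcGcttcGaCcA
Serpina1e: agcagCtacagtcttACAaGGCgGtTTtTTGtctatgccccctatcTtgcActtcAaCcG
Bases 29 to 31 of each line are the codon for the residue before the cleaved bond. This codon was ATG in Serpina1a and Serpina1b, TAT in Serpina1c and Serpina1d, and TTG in Serpina1e, which by the standard code read as methionine, tyrosine and leucine. Methionine at this place is the residue of human alpha-1 antitrypsin.

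The 5 copies lie in a row on the minus strand of chromosome 12, where they spanned 229 kb of the GRCm38.p6 assembly (RefSeq). From low to high coordinates they were Serpina1b at chr12:103728156-103738189, Serpina1d at chr12:103763587-103773633, Serpina1a at chr12:103853295-103863619, Serpina1c at chr12:103894926-103904950 and Serpina1e at chr12:103946931-103956897. Serpina3n lies 450 kb farther along on the plus strand, at chr12:104406646-104414334. The 250 bases before the start sites of the 5 copies shared one identical stretch of 55 bases, shown as a property common to all copies that their choice did not use.
Shared upstream stretch: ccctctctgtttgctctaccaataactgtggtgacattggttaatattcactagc
For Serpina1b this is chr12:103738200-103738254, minus strand, and it began between 55 and 117 bases before the annotated start of the 5 copies. On both strands, AGAACA, a glucocorticoid receptor half-site, was found upstream of all 6 genes and of 16.1% of 32851 RefSeq promoters of the same length. TTGCNNAA, a C/EBP pattern, was upstream of Serpina1b, Serpina1d and Serpina1e and of 9.56% of promoters. The copies are near identical in sequence, so their hits are not independent of one another and no excess over these shares is read. TATAAA, TTCNNNGAA (a STAT pattern) and ACAATG (a SOX9 pattern) were in none of the 6 windows, against 12.4%, 7.02% and 10.7% of promoters. The gene for Hnf4a, a liver transcription factor, was under 0.01 FPKM in both young libraries and listed at 0 in both adult ones.

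The Serpina1 sum was 0.488 FPKM in sham and 0.270 in injured cartilage of young mice, and 1758 FPKM in sham and 351.3 in injured cartilage of adult mice. Both adult libraries were thus far above both young libraries, and within the adult pair the sham library was the higher. In adult sham the sum alone made up 0.349% of all FPKM and ranked with gene number 32 of the table, whereas in young sham it ranked at 13341. In adult injured cartilage it ranked at 202, with 0.0747% of all FPKM. In these bulk samples, fewer cells of a type and less RNA per cell cannot be told apart.

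Serpina1b, with a methionine codon before the cleaved bond, was the most abundant copy in both adult libraries, at 0 and 0.0694 FPKM in the young libraries, 700.2 in adult sham and 228.4 in adult injured. Serpina1d, with a tyrosine codon, followed in the same order of libraries at 0.126, 0.0291, 621.0 and 49.2 FPKM. Serpina1a was at 0, 0.0471, 224.8 and 25.02 FPKM. Each of these copies was therefore near or at 0 in young cartilage and at 224.8 FPKM or more in adult sham. Serpina1c was at 0.0402, 0, 118.3 and 20.9 FPKM. Serpina1e, with a leucine codon, was at 0.322, 0.125, 93.2 and 27.7 FPKM and was the lowest of the 5 in adult sham. None of the copies reached 1 FPKM in either young library, and each of the 5 alone was among the 586 most abundant genes of adult sham.

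Serpina3n followed another order. Its level was 52.6 FPKM in sham and 715.7 in injured cartilage of young mice, against 12.1 and 611.1 FPKM in adult mice. Both injured libraries were above both sham libraries, and it ranked 125 and 122 in the injured libraries against 1194 and 3947 in young and adult sham.

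**Figure D1:**
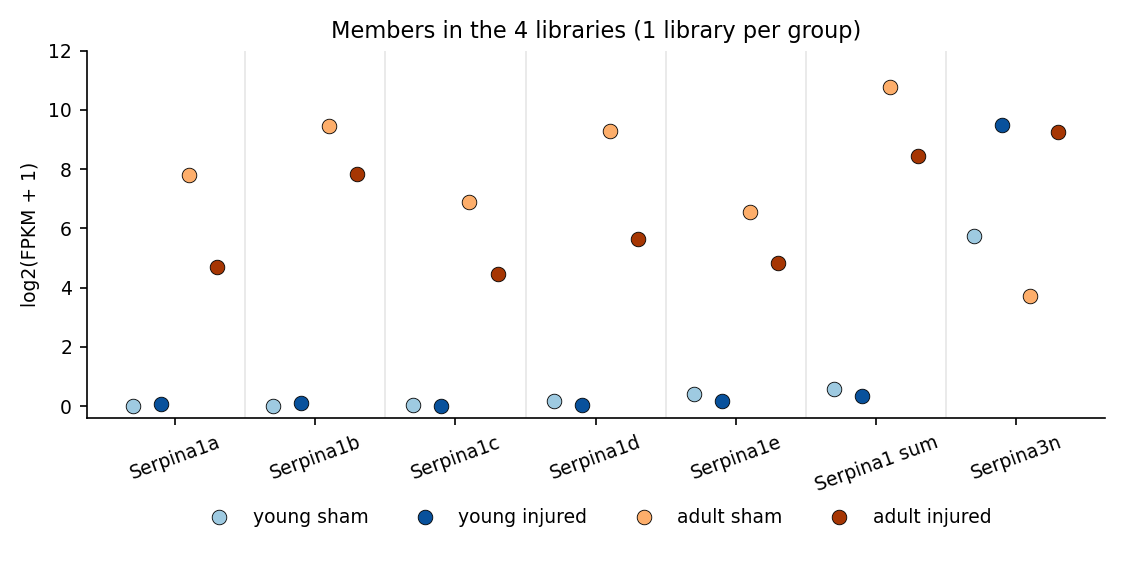
FPKM of the 5 Serpina1 copies, their sum and Serpina3n in the 4 libraries, 1 point per library, on a log2(FPKM + 1) axis. The sum lies at 0.488 and 0.270 FPKM in young and at 1758 and 351.3 FPKM in adult cartilage, while Serpina3n lies highest in the injured libraries, at 715.7 and 611.1 FPKM.

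The first comparison asks how uninjured cartilage differed between the ages. On the log2(FPKM + 1) scale used for all differences below, the Serpina1 sum was 10.21 higher in adult than in young sham. The ratio of the FPKM themselves was 3600, a value that rests on the low level of 0.488 FPKM in young sham. Serpina1d was higher by 9.11, Serpina1c by 6.84 and Serpina1e by 6.15 in log2 difference, and no ratio is given for Serpina1a and Serpina1b, which were listed at 0 in young sham and stood at 224.8 and 700.2 FPKM in adult sham, the latter the highest of the 5 copies. Serpina3n differed the other way, at -2.03, a level 4.34-fold higher in young than in adult sham. Of the 6 genes, 5 were at least 2-fold higher in adult sham and 1 was at least 2-fold lower. Of the 18181 genes above 0 in any library, 484 (2.66%) were at least 2-fold higher and 1934 (10.6%) at least 2-fold lower, and since the members were picked on this contrast nothing is read from their share. With median-of-ratios scaling the split over all genes was 972 higher and 1009 lower. The median difference over the 10891 genes of at least 1 FPKM in every library was -0.30 in this comparison and 0.02 after that scaling, and the Serpina1 sum and Serpina3n kept their directions.

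In young mice, injury was compared with sham at day 3. The Serpina1 sum stayed under 0.5 FPKM in both libraries, with a log2 difference of -0.23, and at these levels no copy could pass 2-fold on the log2(FPKM + 1) scale. Serpina3n was 3.74 higher in log2, or 13.6-fold in FPKM. That makes 1 of 6 genes higher and 0 lower, beside 4.57% and 1.27% of all genes.

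In adult mice the directions of the Serpina1 copies and of Serpina3n were opposite. The Serpina1 sum was 5.003-fold higher in sham than in injured cartilage, a log2 difference of -2.32. All 5 copies were at least 2-fold lower after injury, by unequal amounts. Serpina1d was lower by 12.6-fold (log2 difference -3.63) and Serpina1a by 8.99-fold (-3.12). Serpina1c was lower by 5.66-fold (-2.44), Serpina1e by 3.37-fold (-1.72) and Serpina1b by 3.07-fold (-1.61). Serpina3n was 50.5-fold higher in the injured library, a log2 difference of 5.55. So 1 gene was higher and 5 were lower, beside 6.90% of all genes higher and 1.46% lower. Median-of-ratios scaling changed the split over all genes from 1255 higher and 266 lower to 866 and 455, and the members kept their directions.

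The 2 injured libraries differed in the Serpina1 copies and little in Serpina3n. The Serpina1 sum was higher in adult than in young injured cartilage by 8.12 in log2, with a FPKM ratio of 1299 over a level of 0.270. All 5 copies passed 2-fold in this direction, with log2 differences from 4.63 for Serpina1a to 7.74 for Serpina1b among the 4 copies above 0 in young injured cartilage (no ratio is given for Serpina1c, listed at 0 there), and none was lower, beside 1.80% of all genes higher and 3.09% lower. Serpina3n was 1.17-fold higher in young injured cartilage, a log2 difference of -0.23 that turned to 0.0363 after quantile normalization, so that no direction is read from it. The gap in Serpina3n between the ages in sham cartilage was therefore not seen at this size after injury, a difference that was not tested.

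The copies did not keep their proportions in adult cartilage after injury. Serpina1b made up 39.8% of the sum in adult sham cartilage and 65.0% after injury. Serpina1d went the other way, from 35.3% to 14.0%, and Serpina1a from 12.8% to 7.12%. The shares of Serpina1c and Serpina1e changed less, 6.73% and 5.96% for Serpina1c and 5.30% and 7.88% for Serpina1e. Grouped by the codon before the cleaved bond in the stretch above, the ATG copies together were at 925.0 FPKM in sham and 253.4 in injured cartilage, which is 52.6% and 72.1% of the sum. The TAT copies were at 739.3 and 70.2 FPKM, or 42.1% and 19.98%. Young shares are not given, as no copy reached 1 FPKM there.

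How well reads of 100 bases can tell the copies apart bears on these shares. Of all 100-base windows in the GENCODE vM21 transcripts, 61.0% of those in Serpina1a and 58.5% in Serpina1c were also found in another gene. For Serpina1d, Serpina1b and Serpina1e this was 29.3%, 26.4% and 18.2%, and for Serpina3n 0.204%. The levels of single copies, of Serpina1a and Serpina1c above all, are therefore uncertain, and how shared reads were assigned between copies was not tested. The sum is less open to the division of reads among copies, but it too would change if shared reads were dropped or counted more than once, and 90.0% of the 31-base words of Serpina1a were found in another gene against 84.8% in another copy.

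**Figure D2:**
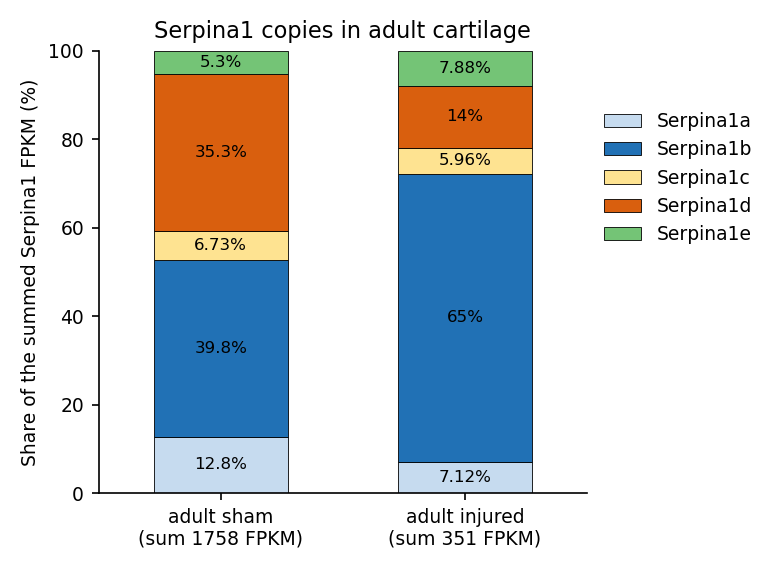
Share of the summed Serpina1 FPKM held by each of the 5 copies in adult sham and adult injured cartilage, in percent, as stacked bars. Serpina1b takes 39.8% in sham and 65.0% in injured cartilage, and Serpina1d 35.3% and 14.0%.

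Few other serpins beside the copies on chromosome 12 were expressed. From the flanking gene Ppp4r4 to the flanking gene Gsc, both included, lay 45 annotated genes, of which 27 were in the table. Besides the 6 members and the flanking pair these were 19 further serpins, 8 of them listed at 0 in every library and 16 under 1 FPKM in every library. Ppp4r4, a phosphatase subunit, was at 0.338, 0.256, 2.09 and 1.83 FPKM, higher in both adult libraries. Serpina1f, a relative next to the copies, was listed at 0 throughout. The 3 of these 19 that reached 1 FPKM, named after their values were seen, were Serpina6, Serpina3g and Serpina3m. Serpina6, which encodes corticosteroid-binding globulin, was at 0 and 0.0710 FPKM in young sham and injured and at 2.04 and 1.44 in adult sham and injured. It was thus higher in both adult libraries, like the Serpina1 copies, at a far lower level. Serpina3m, a relative of Serpina3n, was at 0.182, 1.91, 0.0392 and 1.36 FPKM. Serpina3g, another of these relatives, was at 0.648, 1.69, 0.234 and 1.76 FPKM. Both were higher in the injured libraries, as Serpina3n was, and 5.90% of the 31-base words of Serpina3n transcripts are shared with Serpina3g, the most for any gene.

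**Figure D3:**
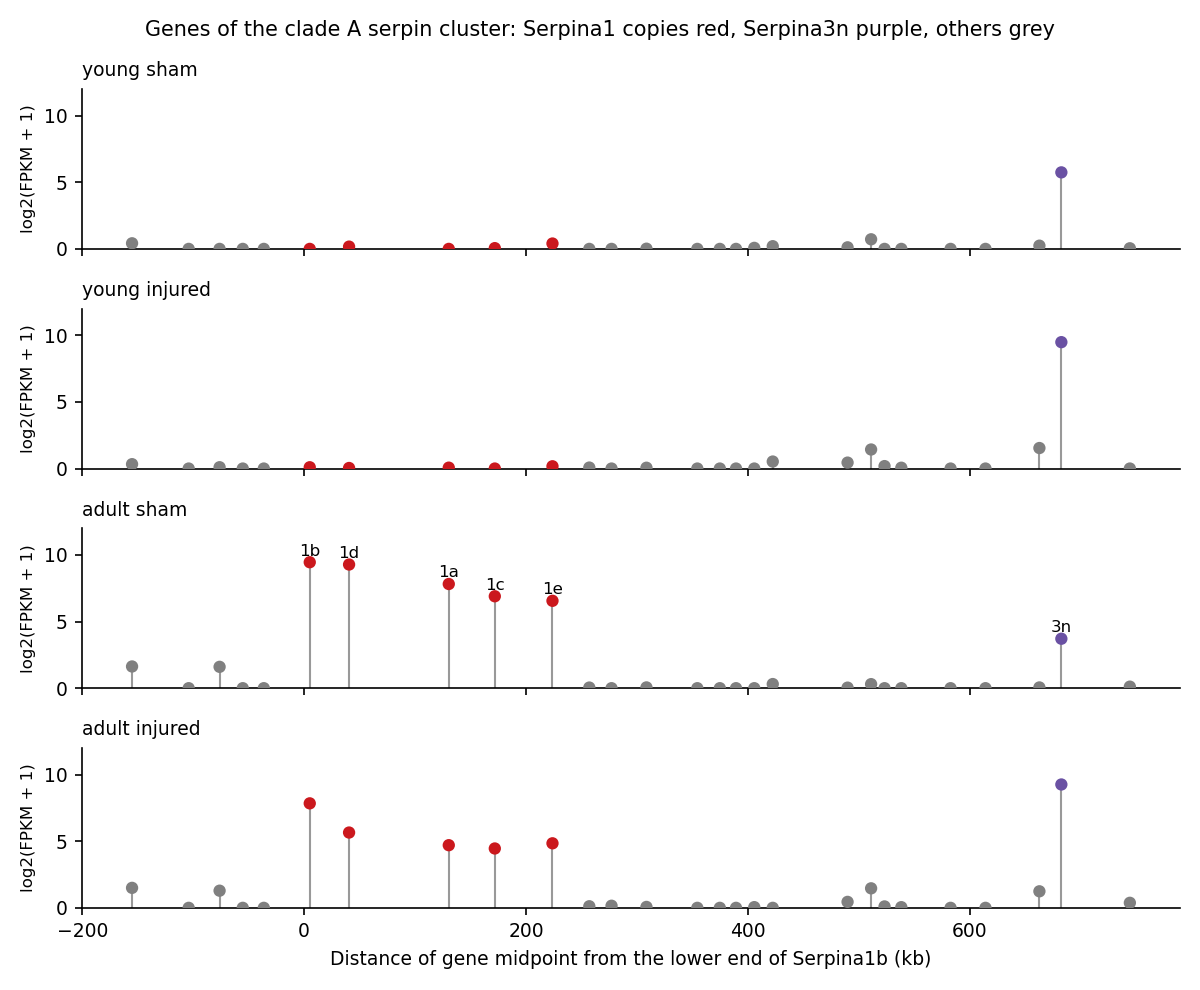
Level of each gene in the serpin cluster between Ppp4r4 and Gsc in the 4 libraries, in FPKM on a log2(FPKM + 1) axis, with genes placed by distance in kb along the chromosome. The Serpina1 copies reach 93.2 to 700.2 FPKM in adult sham and Serpina3n 715.7 FPKM in young injured cartilage, while 16 of the 19 other serpins stay under 1 FPKM.

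Transcripts of the proteases that alpha-1 antitrypsin is known to inhibit were present at moderate levels. Elane, neutrophil elastase, was at 15.6, 18.6, 38.0 and 37.0 FPKM in the order given above. Prtn3, proteinase 3, was at 10.9, 13.2, 22.8 and 23.9 FPKM, and Ctsg, cathepsin G, at 3.09, 3.84, 3.17 and 6.29 FPKM. The first pair was higher in both adult libraries and nearly level between sham and injured. Elane was the only one of the 3 to pass 2-fold in any of the 4 comparisons, in adult against young sham, where Prtn3 fell just short of it and passed it with median-of-ratios scaling, as Elane then did between the injured libraries. Summed, these proteases exceeded the Serpina1 sum by 60.6-fold in young sham and 132.0-fold in young injured cartilage. In adult sham the Serpina1 sum exceeded theirs 27.5-fold, and in adult injured cartilage 5.23-fold. These are ratios of transcript levels per length and say nothing of protein. Of the targets of Serpina3n, Gzmb, granzyme B, had a listed value of 0 in sham cartilage of either age, with 0.327 FPKM after young and 0.826 after adult injury, and Ctsg did not pass 2-fold in any comparison. Mast cell proteases and markers, 6 genes, were all under 1 FPKM, with sums of 0.811 to 2.87 FPKM.

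Liver cells, the usual source of alpha-1 antitrypsin, left little trace in the table. Of 16 hepatocyte genes 6 were listed at 0 in all 4 libraries, among them Alb and Ttr, which encode albumin and transthyretin. The 16 genes summed to 3.21, 2.14, 3.47 and 2.18 FPKM. The highest value of any of them was 1.28 FPKM, for Apoh in adult sham, where the Serpina1 sum was 1758 FPKM. The part of liver cells in the Serpina1 levels was not tested.

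Other marker genes moved with the Serpina1 copies in some of the comparisons. Skeletal muscle genes summed to 840.1 and 651.9 FPKM in the young libraries, 1523 in adult sham and 434.3 FPKM after adult injury. Of these 9 genes, 5 were at least 2-fold higher in adult than in young sham, beside 2.66% of all genes, and 7 at least 2-fold lower in adult injured than in adult sham, beside 1.46%. Between the injured libraries 1 was higher in adult and 0 lower, beside 1.80% and 3.09% of all genes, with a median log2 difference of -0.06, where all 5 Serpina1 copies were higher. Mb, myoglobin, was at 13.7, 6.93, 69.7 and 16.5 FPKM in the usual order of libraries. The muscle sum was thus highest in adult sham, as the Serpina1 sum was. The 12 chondrocyte genes summed to 21692, 18074, 62336 and 26791 FPKM, an order led by Cytl1 and by Chad, a matrix protein that binds collagen. Chad was at 2781, 2348, 20538 and 8281 FPKM. Of the 12, 3 were higher and 6 lower in adult than in young sham, beside 2.66% and 10.6% of all genes. The 6 lower ones were Matn3, Col9a1, Col11a1, Hapln1, Lect1 and Col2a1, with log2 differences from -6.90 to -1.56. The 3 higher ones were Cytl1, Chad and Comp. In adult injured against adult sham 3 were higher and 2 lower, beside 6.90% and 1.46%, and Cytl1 and Chad were the 2 lower ones. The 3 higher ones were Acan, Col9a1 and Col11a1, the last within 2-fold with median-of-ratios scaling. The part of these cells in the Serpina1 levels was not tested.

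The sums of 8 osteoblast genes and of 10 hypertrophic chondrocyte genes were also higher in adult cartilage, and were not lower after adult injury. The former summed to 400.3, 846.5, 1015 and 1561 FPKM and the latter to 1347, 3959, 8181 and 12869 FPKM. In adult against young sham, 5 osteoblast genes were higher and 0 lower, and 4 hypertrophic genes were higher and 2 lower, Mef2c and Panx3, beside 2.66% and 10.6% of all genes. With median-of-ratios scaling these 2 were within 2-fold. In adult injured against adult sham, 2 osteoblast genes were higher and 1 lower, Sost, and 3 hypertrophic genes were higher and 1 lower, beside 6.90% and 1.46% of all genes. Of the higher ones, Phex (osteoblast) and Runx2 (hypertrophic) came within 2-fold with median-of-ratios scaling. The lower hypertrophic gene was Ihh, a hedgehog ligand, at 16.6 FPKM in adult sham and 7.55 after injury. Between the injured libraries 4 osteoblast and 5 hypertrophic genes were higher in adult and 0 lower, beside 1.80% and 3.09% of all genes. Adipocyte genes (6) summed to between 43.8 and 70.3 FPKM and fibroblast and synovium genes (8) to between 1918 and 4415 FPKM. None was past 2-fold between the sham libraries as deposited. With median-of-ratios scaling Cfd, Clec3b and Prg4 were at least 2-fold higher in adult sham, at log2 differences of 1.25, 1.27 and 1.19. After adult injury 1 adipocyte gene was lower, Cfd, the complement factor adipsin, at 37.1 FPKM in adult sham and 5.23 in adult injured. Fabp4, by mean level the most abundant of the 6, was at 27.3 and 36.2 FPKM in these libraries. With median-of-ratios scaling Adipoq was also at least 2-fold lower. Of the fibroblast genes 2 were higher and 2 lower, beside 6.90% and 1.46% of all genes. The lower ones were Dpt (78.8 and 36.7 FPKM) and Clec3b (8.31 and 3.43 FPKM). The higher ones were Col1a1 (223.2 and 740.6 FPKM) and Col1a2 (442.5 and 939.0 FPKM). Col1a2 came within 2-fold with median-of-ratios scaling. Cfd, Dpt and Clec3b were highest in adult sham, as the Serpina1 copies were, whereas Fabp4, Col1a1 and Col1a2 were not. The part of all these genes in the result was not tested. Erythroid genes (7) had their highest sum in young injured cartilage, 18440 FPKM, and their lowest in adult injured cartilage, 3031 FPKM, mostly from Hba-a2, an alpha globin. Of the 7, 1 was higher and 5 lower in adult than in young sham (3 lower with median-of-ratios scaling), beside 2.66% and 10.6% of all genes. After adult injury 0 were higher and 3 lower, beside 6.90% and 1.46%. Between the injured libraries 0 were higher and 7 lower in adult, beside 1.80% and 3.09%. Hbb-bs, a beta globin, went against the sum, at 105.7, 782.9, 2868 and 83.4 FPKM, and was highest in adult sham as the Serpina1 copies were. The part of these cells in the result was not tested.

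With Serpina3n, macrophage genes moved in both injured libraries. The 10 genes summed to 182.1 and 1811 FPKM in young sham and injured and to 301.4 and 1569 FPKM in adult sham and injured, and all 10 were at least 2-fold higher after injury at both ages, beside 4.57% of all genes in young and 6.90% in adult mice. The 12 neutrophil genes summed to 1272, 2674, 1655 and 2143 FPKM, with 4 higher after young injury and 2 after adult injury, beside the same shares. In adult sham, where Serpina3n was at its lowest, 5 of the 10 macrophage genes were at least 2-fold higher than in young sham, beside 2.66% of all genes. The part of these cells in the Serpina3n levels was not tested.

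Serpina3n is counted among acute phase genes, and the 16 other genes of that response and of IL-6 signalling were compared with it. In young injured against sham cartilage 8 were higher and 0 lower, with a median log2 difference of 1.07, beside 4.57% of all genes higher and a median of 0 over them. In adult injured against sham 10 were higher and 0 lower, with a median of 1.998, beside 6.90% and a median of 0.14. Lcn2, an iron-sequestering acute phase protein, was at 64.6, 639.2, 82.7 and 2117 FPKM. Hp, haptoglobin, was at 16.4, 45.6, 30.6 and 159.0 FPKM, and Saa3, a serum amyloid A, at 0.0719, 24.6, 0 and 94.9 FPKM. Saa1 and Saa2, further serum amyloid A genes, were at 5.13 and 2.56 FPKM in young injured and 164.4 and 46.1 FPKM in adult injured cartilage. Between the injured libraries 6 of the 16 were higher in adult, these 5 and Cebpd, a transcription factor, and 0 lower, beside 1.80% and 3.09% of all genes. Their log2 differences ran from 1.46 for Cebpd to 4.75 for Saa1, whereas Serpina3n was nearly level between them at -0.23. Osmr, the oncostatin M receptor, was closer to Serpina3n in this respect, at 8.42, 39.7, 7.26 and 31.2 FPKM. Socs3, a feedback inhibitor of IL-6 signalling, was at 5.54, 21.8, 4.67 and 29.8 FPKM. Stat3, the factor activated by IL-6, was at 24.6, 35.0, 11.1 and 48.6 FPKM and was the 1 gene of the 16 at least 2-fold lower in adult than in young sham, at a log2 difference of -1.08 that became -0.71 with median-of-ratios scaling.

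**Figure D4:**
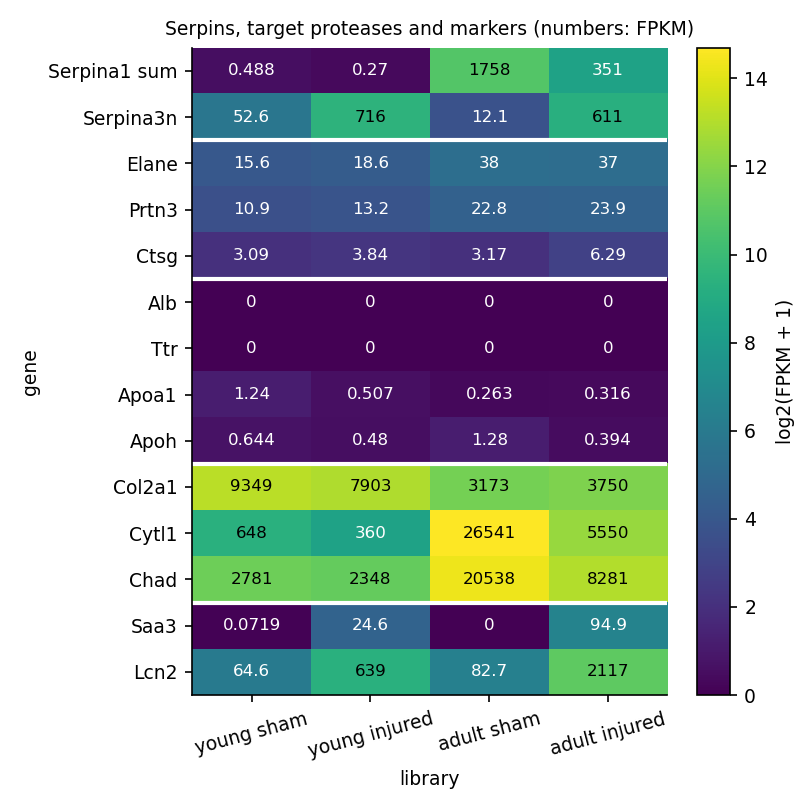
Heat map of the Serpina1 sum, Serpina3n, 3 target proteases, 4 hepatocyte genes, 3 chondrocyte genes and 2 acute phase genes in the 4 libraries, coloured by log2(FPKM + 1) with FPKM written in each field. Alb and Ttr are listed at 0 throughout. Cytl1 and Chad are highest in adult sham like the Serpina1 sum, whereas Col2a1 is highest in young sham (9349 FPKM, against 3173 in adult sham). Lcn2 is highest in the injured libraries like Serpina3n.

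Most other serpins did not share the pattern of either. Of the 57 compared, 23 were listed at 0 in all libraries and 11 reached 1 FPKM in any. In adult against young sham 2 were at least 2-fold higher and 0 lower, beside 2.66% and 10.6% of all genes, with a median log2 difference of 0.00 beside -0.15 for all genes. Serpine2, protease nexin-1, an inhibitor of thrombin and plasminogen activators, was the more abundant of these, at 304.3, 409.3, 1166 and 1263 FPKM. Like the Serpina1 copies it was higher in adult cartilage (log2 difference 1.93 in sham and 1.62 in injured), but it was not lower after adult injury. Serpina6, described above, was the other one higher in adult sham.

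After injury no other serpin came near the difference of Serpina3n on the log2(FPKM + 1) scale, which shrinks that of low genes: in FPKM, Serpina3m was 10.5-fold higher in young and 34.8-fold higher in adult injured cartilage, from levels under 0.2 FPKM. In young mice 3 of the 57 were higher, beside 4.57% of all genes, and 0 lower, and their log2 differences were 1.298 for Serpina3m, 1.25 for Serpinb8 and 1.08 for Serping1, the C1 inhibitor of the complement system, against 3.74 for Serpina3n. Serping1 was at 3.54, 8.56, 7.40 and 13.6 FPKM and was higher after adult injury by 0.80. In adult mice 3 were higher, beside 6.90% of all genes, and 0 lower, namely Serpina3m (1.19), Serpina3g (1.16) and Serpinf1 (1.08), against 5.55 for Serpina3n. Serpinf1, which encodes pigment epithelium-derived factor, an inhibitor of vessel growth, was at 81.9, 111.0, 68.9 and 146.3 FPKM. Between the injured libraries Serpine2 and Serpina6 were higher in adult and 0 were lower, beside 1.80% and 3.09% of all genes. The median log2 difference of the other serpins was 0.11 in young injury, 0.06 in adult injury and 0.00 between the injured libraries. The low serpins Serpina3m, Serpina3g, Serpina6 and Serpinb8 were named after their values were seen.

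The remaining ones of these that averaged at least 5 FPKM stayed within 2-fold in all 4 comparisons. Serpinh1, the collagen chaperone of the endoplasmic reticulum, was at 946.4, 1511, 839.1 and 848.4 FPKM in the usual order. Serpinb6a, an intracellular inhibitor, was at 131.8, 135.1, 208.9 and 181.0 FPKM. Serpinb1a, an inhibitor of neutrophil proteases that acts inside cells, was at 7.17, 11.2, 6.00 and 10.6 FPKM, and Serpinb9, an inhibitor of granzyme B, at 7.08, 5.199, 5.97 and 5.48 FPKM. In adult sham the Serpina1 sum exceeded Serpinh1 and Serpine2, whereas in young cartilage Serpinh1 was the most abundant serpin of all.

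**Figure D5:**
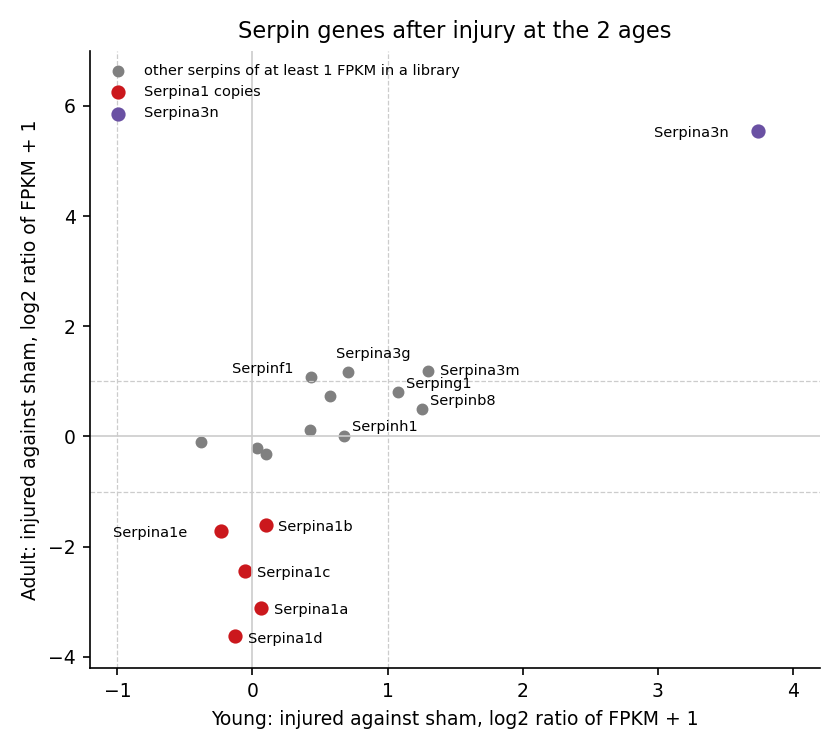
Log2 ratio of FPKM + 1, injured against sham, in adult mice (vertical axis) plotted against the same ratio in young mice (horizontal axis) for the 6 members and the 11 compared serpins of at least 1 FPKM in a library, with dashed lines at 2-fold. Serpina3n lies at 3.74 and 5.55, the 5 Serpina1 copies lie between -3.63 and -1.61 on the adult axis and within 2-fold on the young axis.

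Genes whose pattern over the 4 libraries lay nearest were sought among the 8048 other genes whose mean reached 5 FPKM, by Euclidean distance between centred log2(FPKM + 1) values. With 4 libraries such a likeness is only a description. Nearest to the Serpina1 sum was Atp6v0c-ps2, a pseudogene, at a distance of 2.71 with 0.0364, 0.105, 159.4 and 289.1 FPKM. It shared the step between the ages but was higher, not lower, in the adult injured library, and as a pseudogene it may share reads with its parent gene. Cytl1 followed at 4.53 with 648.1, 359.7, 26541 and 5550 FPKM, an order equal to that of the Serpina1 sum. Sost, which encodes the osteocyte product sclerostin, lay at 5.52 with 0.459, 0.0915, 26.0 and 8.67 FPKM, also in that order. Cilp, a cartilage matrix protein, lay at 5.65 with 152.4, 74.9, 2093 and 795.2 FPKM. Chst5, a sulfotransferase, lay at 5.88 with 2.85, 2.24, 49.2 and 25.6 FPKM. All but the pseudogene were thus highest in adult sham, next in adult injured and lowest in young injured cartilage.

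The genes nearest to Serpina3n lay at smaller distances. Such distances grow with the range of a pattern, which was wider for the Serpina1 sum, so no closer likeness is read from them. Mmp13, the collagenase that cleaves type II collagen, was at a distance of 1.32 with 25.3, 473.7, 21.2 and 518.2 FPKM. Hmox1, heme oxygenase 1, was also at 1.32, with 8.90, 189.8, 6.98 and 132.9 FPKM. Both were at least 10 times higher in each injured library than in the sham library of the same age. Ccl6, a chemokine, was at 1.54 with 3.34, 95.9, 2.34 and 37.9 FPKM. Clec4d, a myeloid lectin receptor, was at 1.56 with 0.986, 24.8, 0.647 and 20.6 FPKM, and Ccl2, a monocyte chemokine, at 1.57 with 0.0948, 34.1, 0 and 13.0 FPKM. These 5 genes were higher in both injured libraries than in either sham library, as Serpina3n was.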

How the data were processed

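RNA from cartilage was made into 4 poly-A libraries with a stranded kit and sequenced as pairs of 100 bases. The deposited table gives FPKM per gene made by the authors. The submitters' processing notes name HISAT2 2.1.0, StringTie 1.3.4d, STAR and SAMtools, with the build mm10, but not which tool made the values. FPKM were used as deposited, and 0 columns were left out. Differences are log2 ratios of FPKM + 1, called at 2-fold over the 18181 genes above 0 in any library. This scale understates the change of low genes. With 1 library per group no test was run. Read depth is unknown: 35.9% to 40.5% of low values lay within 0.1 of a whole multiple of the step that fitted best. Evenly spread values would in part fall there too, and most values lay elsewhere, so whole fragments were not recovered. Members and gene lists were chosen with earlier results of these data known. Other serpins were named at a mean of 5 FPKM or more, or past 2-fold with 5 FPKM in a library. From the marker lists only some of the most abundant genes and of those past 2-fold are named. Sequences were read from GENCODE vM21 and RefSeq (GRCm38.p6) with Biopython 1.88, and values computed in Python 3.11.15 with pandas 2.3.3, checked on simulated data. The alternatives changed the pseudocount (0.1 and 5 FPKM), the scaling (TPM, median of ratios, quantile), the threshold (1.5-fold and 3-fold), the filter on low genes, and the copies summed. Some genes and a motif are not reported here and were left out of the lists.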

Additional observations from a re-analysis of the deposited data

How the results depend on the processing

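The Serpina1 sum and Serpina3n kept their direction under every alternative in adult against young sham, in young injury and in adult injury, and so did the Serpina1 sum between the injured libraries. Each of the 5 copies was at least 2-fold higher in adult than in young sham, at least 2-fold lower after adult injury and at least 2-fold higher in adult than in young injured cartilage in all 25 combinations of copy and setting. The sum in adult against young sham (10.21 in log2) became 11.55 with a pseudocount of 0.1 FPKM, 8.33 with 5 FPKM and 9.47 without Serpina1b, the most abundant copy. Between the injured libraries (8.12) it became 9.89, 6.08 and 6.69 in the same settings and 8.96 on the TPM scale, and in adult injury (-2.32) it became -3.09 without Serpina1b. Serpina3n between the injured libraries was -0.23 as reported and 0.0363 after quantile normalization, so that its direction there is not settled. Counts of other serpins are small and moved with the settings. In adult against young sham, 2 higher became 4 (0.1 FPKM), 1 (5 FPKM), 5 (median of ratios), 4 (quantile) and 5 (1.5-fold), and 0 lower became 2 (0.1 FPKM). In young injury, 3 higher became 11 (0.1 FPKM), 0 (5 FPKM), 6 (1.5-fold) and 0 (3-fold). In adult injury, 3 higher became 7 (0.1 FPKM), 1 (5 FPKM), 1 (quantile), 5 (1.5-fold) and 0 (3-fold), and 0 lower became 1 (0.1 FPKM). Between the injured libraries, 2 higher became 1 (5 FPKM) and 1 (3-fold), and 0 lower became 3 (0.1 FPKM), 1 (TPM) and 2 (1.5-fold). The marker and pathway lists were also counted after median-of-ratios scaling, an alternative chosen after seeing the data: of 136 counts, 118 stayed within 1.5 times and 18 did not. The causes of these shifts were not tested. No paired analysis was possible because each group was 1 library and the labels carry no replicate numbers, and for the same reason no replicate could be left out.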

Other observations

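Genes for the export and quality control of alpha-1 antitrypsin in the endoplasmic reticulum did not share its level in adult sham cartilage. Of 7 such genes 3 were at least 2-fold lower in adult than in young sham and 0 were higher, beside 10.6% and 2.66% of all genes, and the count of lower genes over the whole table went from 1934 to 1009 with median-of-ratios scaling, which also brought Canx within 2-fold. They summed to 340.3, 324.4, 192.3 and 247.4 FPKM in young sham and injured and then adult sham and injured cartilage. Lman1, a cargo receptor that carries alpha-1 antitrypsin toward the Golgi, was at 116.0, 122.3, 29.2 and 56.0 FPKM. Canx, the chaperone calnexin, was at 82.4, 55.5, 35.8 and 41.4 FPKM, and Edem3, which helps to send misfolded glycoproteins to degradation, at 16.0, 10.8, 4.97 and 7.52 FPKM. In adult injured against adult sham 1 of the 7, Edem1, was higher, beside 6.90% of all genes, and came within 2-fold with that scaling. Between the injured libraries 1, Lman1, was lower in adult, beside 3.09% of all genes.

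Of 7 glucocorticoid response genes, compared because a receptor half-site was upstream of all 6 members, 1 was higher and 1 lower in adult than in young sham, beside 2.66% and 10.6% of all genes. Fkbp5, a chaperone induced by glucocorticoids, was at 3.41, 4.996, 10.5 and 6.40 FPKM. Hsd11b1, which regenerates active glucocorticoid, was at 5.48, 4.33, 1.08 and 2.32 FPKM. After adult injury 1 was higher, beside 6.90% of all genes, namely Sgk1, a kinase, at 28.0 FPKM in the adult sham library and 64.3 after adult injury. With median-of-ratios scaling Sgk1 came within 2-fold and 2 of the 7, Tsc22d3 and Per1, were at least 2-fold lower after adult injury.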
